A study of Mus musculus with 7 samples.

Results

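Cadherins and protocadherins were taken as all gene rows whose symbol was Cdh followed by a number, other than Cdh5, and all rows whose symbol began with Pcdh. They made up 93 of 32531 gene rows, namely 22 cadherins, 59 clustered protocadherins (Pcdha, Pcdhb and Pcdhg) and 12 non-clustered protocadherins. A filter on low counts was passed by 86 of them (21, 53 and 12), and those were tested. The libraries came from the midbrain of untreated adult control mice, line Stard8-TRAP ES2342, so that all 7 carried the same transgene. The transgene, Stard8-EGFP/Rpl10a, joins EGFP to the ribosomal protein Rpl10a, and the labels name Stard8 without describing the driving sequence. Translating ribosome affinity purification captured the tagged ribosomes with antibodies against EGFP, giving 3 immunopurified libraries (IP 1, 2 and 4), which were compared with 4 libraries of the RNA left unbound (unbound 1 to 4). An IP library 3 was not analysed here. The labels name a single line, and give neither the sex of the animals nor whether animals were pooled.

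Cadherins are membrane proteins that hold neighbouring cells together through calcium-dependent contacts between their extracellular repeats. Classical cadherins of type I and type II join to the actin cytoskeleton through catenins. Clustered protocadherins sit in 3 gene arrays in which each variable exon has its own promoter and, in Pcdha and Pcdhg, is spliced to constant exons shared by the whole array. Neurons choose few of these promoters each, so that combinations of isoforms label single cells, whereas the C-type isoforms at the ends of the Pcdha and Pcdhg arrays are used more broadly. Non-clustered protocadherins, mainly of the delta groups, are known for roles in axon and synapse patterning.

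The series describes the captured cells as neurons, and marker genes did not follow that label. All 8 neuronal markers fell in IP (median log2 fold change -1.76), with a summed level of 3193, 3413 and 7071 CPM (counts scaled to a common library size) in IP 1, 2 and 4 against 12205 to 19344 in unbound. All 10 endothelial markers, all 8 of pericytes and smooth muscle and all 8 of microglia and macrophages rose, with summed levels of 2019 to 2704, 3662 to 5264 and 1050 to 1143 CPM in IP, against at most 64.2, 42.2 and 70.8 CPM in unbound. Of 6 astrocyte markers 4 rose, from a sum of 815 ± 311 CPM in unbound (SD, n = 4) to 1421 ± 262 in IP (SD, n = 3), 4 of 6 fibroblast and meningeal markers rose, and all 6 oligodendrocyte markers fell. No marker in these lists was at 0 in all unbound libraries. These marker levels moved with the groups in every result that follows, and their part in it was not tested. A fold change here compares RNA captured with RNA left unbound. Which cells were captured and how much of an RNA each cell held cannot be told apart in it. Stard8 measured 227 to 440 CPM in IP and 3.51 to 4.89 CPM in unbound.

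More cadherins and protocadherins fell than rose on the tagged ribosomes relative to the unbound RNA, and most did not pass the test in either direction. Of the 86 tested, 24 (27.9%) fell and 3 (3.49%) rose in IP at an adjusted p under 0.05 (edgeR quasi-likelihood test, Benjamini-Hochberg over all genes), where 18.9% of all 17654 genes tested fell, 20.5% rose and 39.4% changed in either direction. A log2 fold change below 0, called or not, was found for 69 of the 86 and for 9466 of all 17654 genes tested. Every IP library lay below every unbound library for 29 of the 86 and above for 5, against 22.7% and 25.1% of all genes tested. The 3 that rose were the non-clustered protocadherins Pcdh18 and Pcdh1 and the clustered C-type isoform Pcdhgc3. The 22 cadherin rows summed to 211 ± 48.6 CPM in IP (SD, n = 3) and 437 ± 47.2 in unbound (SD, n = 4). The 12 non-clustered protocadherins summed to 454 ± 97.1 and 713 ± 162 CPM, and the 59 clustered rows to 173 ± 57.7 and 234 ± 60.3.

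The branches of the family differed in how many members changed and in their median, and those differences were described but not tested. Cadherins fell in 9 of 21 with a median log2 fold change of -1.18, and 0 rose. Non-clustered protocadherins fell in 7 of 12 and rose in 2, with a median of -1.08. Of the clustered arrays, Pcdha fell in 2 of 11 (median -1.51), Pcdhb in 5 of 20 (median -1.04) and Pcdhg in 1 of 22, with 1 higher (median -0.27). Over all genes tested the median was -0.10, 18.9% fell and 20.5% rose. The share that fell was 42.9% of cadherins and 58.3% of non-clustered protocadherins. It was 18.2% of Pcdha, 25% of Pcdhb and 4.55% of Pcdhg. Clustered rows together fell in 15.1%, near the share over all genes, although 42 of the 53 had a log2 fold change below 0 (median -0.96). Their standard errors ran from 0.29 to 1.20, and the part of low counts in the share called was not tested. For cadherins the count of 0 higher was also 0 at an unadjusted p under 0.05 and with DESeq2, while limma voom called 1, Cdh26. Pcdha and Pcdhb gave 0 higher by edgeR, at an unadjusted p under 0.05, by DESeq2 and by voom.

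**Figure D1:**
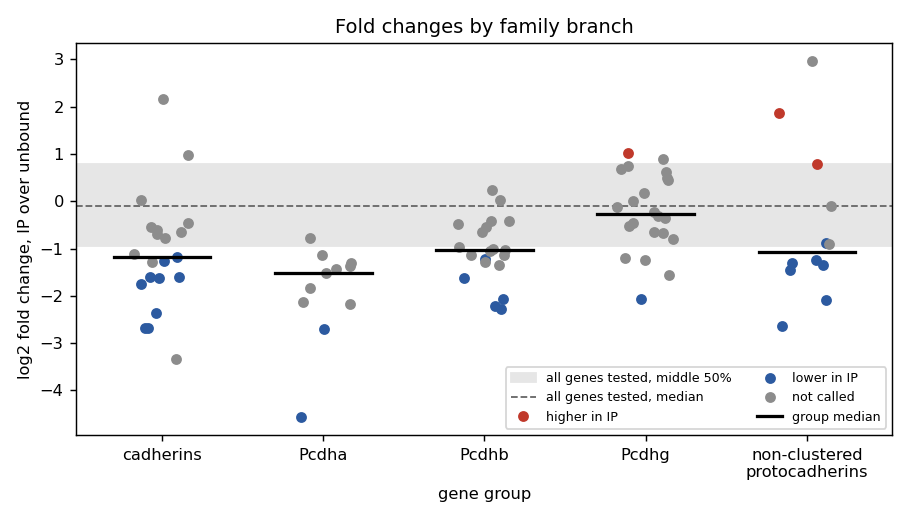
Log2 fold change of IP over unbound (vertical axis) for each tested member, grouped by branch, with red points called higher, blue points called lower and grey points not called. Black bars are group medians, and the grey band and dashed line are the middle 50% and the median of all 17654 genes tested. The Pcdhg median of -0.27 is the closest of the 5 to that of all genes, -0.10.

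The libraries of a group were not alike in these genes. IP 4 had the highest level of the 3 IP libraries for 57 of the 86 tested members, and unbound 2 the lowest of the 4 unbound libraries for 53. Without IP 1 or IP 2 the members called lower were 14 and 15 rather than 24, and without IP 4 they were 29. Calls over all genes also fell, from 39.4% to 26.4% without IP 1, 24.7% without IP 2 and 35.5% without IP 4. Index sequence ACAGTG marked IP 1, IP 2, unbound 1 and unbound 2, and GTGAAA marked IP 4, unbound 3 and unbound 4. Within ACAGTG 14 members were lower and 1 higher, with 21.7% of all genes called, and within GTGAAA 25 were lower and 8 higher, with 39% called, where the spread of the single IP library was taken to equal that of the unbound libraries. Of the 27 calls, 10 held in every alternative fit in which the gene could be tested. They were Cdh7, Cdh8, Cdh12, Cdh18, Cdh23, Cdh24, Pcdh11x, Pcdh15, Pcdh18 and Pcdhgc4.

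Among type I classical cadherins, 2 of 5 fell. Cdh2, which encodes N-cadherin, the main cadherin of neural tissue and of synapses, was the most abundant cadherin row. It measured 42.8, 55.8 and 49.98 CPM in IP 1, 2 and 4 and 66.8, 56.0, 76.5 and 72.6 CPM in unbound 1 to 4. The groups did not overlap, although IP 2 and unbound 2 nearly met, and the log2 fold change of -0.46 ± 0.22 (standard error) did not pass (adjusted p = 0.116). Cdh4, R-cadherin, measured 13.5, 12.6 and 13.9 CPM in IP and 41.7, 22.7, 26.9 and 29.1 CPM in unbound. All IP libraries were below all unbound ones, and Cdh4 fell by 1.18 on the log2 scale (adjusted p = 0.00553), but within index ACAGTG the value of -1.30 had an adjusted p of 0.0662. Cdh15, M-cadherin of muscle, was low, with 0.707, 1.24 and 0.256 CPM in IP and 11.0, 4.05, 2.05 and 1.82 CPM in unbound. Unbound 1 was far above the other unbound libraries. Its log2 fold change was -2.69 ± 0.80 (adjusted p = 0.021), and -1.85 (adjusted p = 0.0541) without unbound 1. Without IP 1 or IP 4 the adjusted p of Cdh15 was 0.0698 and 0.0623, and without IP 4 and unbound 2 together it was 0.0573. The epithelial cadherins Cdh1 (E-cadherin) and Cdh3 (P-cadherin) were low and uneven between libraries. Cdh1 had 47, 52 and 220 counts in IP and 62, 0, 95 and 77 in unbound, so that the groups overlapped and IP 4 stood above all others (0.99 ± 1.16, adjusted p = 0.531). Cdh3 had 16, 10 and 9 counts in IP and 1, 0, 12 and 60 in unbound (-0.77 ± 1.46, adjusted p = 0.705).

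Type II classical cadherins, many of which mark subsets of neurons and their connections, gave 5 lower of 12. Cdh18 measured 11.4, 11.0 and 15.98 CPM in IP and 30.1, 47.0, 38.4 and 39.1 CPM in unbound, with a log2 fold change of -1.60 (adjusted p = 0.000805). Cdh8 measured 8.63, 9.13 and 18.2 CPM in IP and 40.5, 26.3, 37.0 and 42.7 CPM in unbound, with -1.61 ± 0.33 (adjusted p = 0.00317). Cdh12 measured 4.58, 6.48 and 14.5 CPM in IP and 32.9, 16.8, 29.5 and 36.1 CPM in unbound, with -1.76 ± 0.43 (adjusted p = 0.00799). In all 3 genes the groups were apart, and IP 4 was the IP library nearest to unbound. Cdh7 had the smallest standard error of the called cadherins, with 10.5 ± 1.38 CPM in IP (SD, n = 3) and 32.2 ± 5.14 in unbound (SD, n = 4) and a log2 fold change of -1.62 ± 0.25 (adjusted p = 0.000556). Cdh24, on chromosome 14 from 54631231 to 54641364 (GRCm38, minus strand, protein coding), fell the furthest of the type II genes. It measured 2.0, 2.58 and 3.42 CPM in IP and 35.5, 10.9, 11.7 and 10.5 CPM in unbound. All IP libraries were below all unbound ones, and unbound 1 was far above the other 3. Its log2 fold change was -2.69 ± 0.51 (adjusted p = 0.0021), and -2.05 (adjusted p = 0.00113) without unbound 1.

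The other 7 type II genes did not pass. Cdh11, a cadherin also of mesenchymal cells with the next highest total count, measured 23.8, 33.4 and 25.6 CPM in IP and 53.9, 25.3, 43.0 and 38.3 CPM in unbound (-0.54 ± 0.28, adjusted p = 0.153). Unbound 2 lay within the IP range. Cdh20 and Cdh22 had log2 fold changes of -0.61 ± 0.26 and -0.69 ± 0.31, with all IP libraries below all unbound ones and adjusted p of 0.0869 and 0.105. Cdh9 had -1.29 ± 0.53 (adjusted p = 0.0747), Cdh6 -1.11 ± 0.55 (adjusted p = 0.137) and Cdh10 -0.64 ± 0.39 (adjusted p = 0.215). Cdh10 in IP 4, with 30.0 CPM, was as high as in unbound 3, with 29.9, while IP 1 and IP 2 had 9.63 and 11.7. Cdh19 had 5.11 ± 3.46 CPM in IP and 5.02 ± 2.19 in unbound (0.02 ± 0.53, adjusted p = 0.978).

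Of the cadherins outside types I and II, 2 of 4 tested fell. Cdh23, a giant cadherin known from the tip links of inner ear hair cells, measured 1.57, 3.97 and 5.41 CPM in IP and 10.6, 30.1, 21.1 and 13.6 CPM in unbound. Its log2 fold change was -2.37 ± 0.50 (adjusted p = 0.00384), with the groups apart. Cdh13, T-cadherin, which is held in the membrane by a lipid anchor and lacks a cytoplasmic tail, measured 10.7, 13.1 and 28.9 CPM in IP and 51.2, 25.7, 46.7 and 44.5 CPM in unbound. IP 4 was above unbound 2, and the log2 fold change of -1.26 ± 0.38 (adjusted p = 0.0225) lost its call without IP 1, IP 2 or unbound 3 (adjusted p = 0.0966, 0.104 and 0.0502). Cdh26 was the single cadherin with all IP libraries above all unbound ones, at 0.826 ± 0.058 CPM in IP and 0.185 ± 0.241 in unbound, and did not pass (2.15 ± 1.25, adjusted p = 0.195). Cdh17 had 0 counts in IP 1 and IP 2 and 5 in IP 4 (-3.34 ± 1.75, adjusted p = 0.154), and Cdh16, with 7 counts in all libraries together, was not tested.

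**Figure D2:**
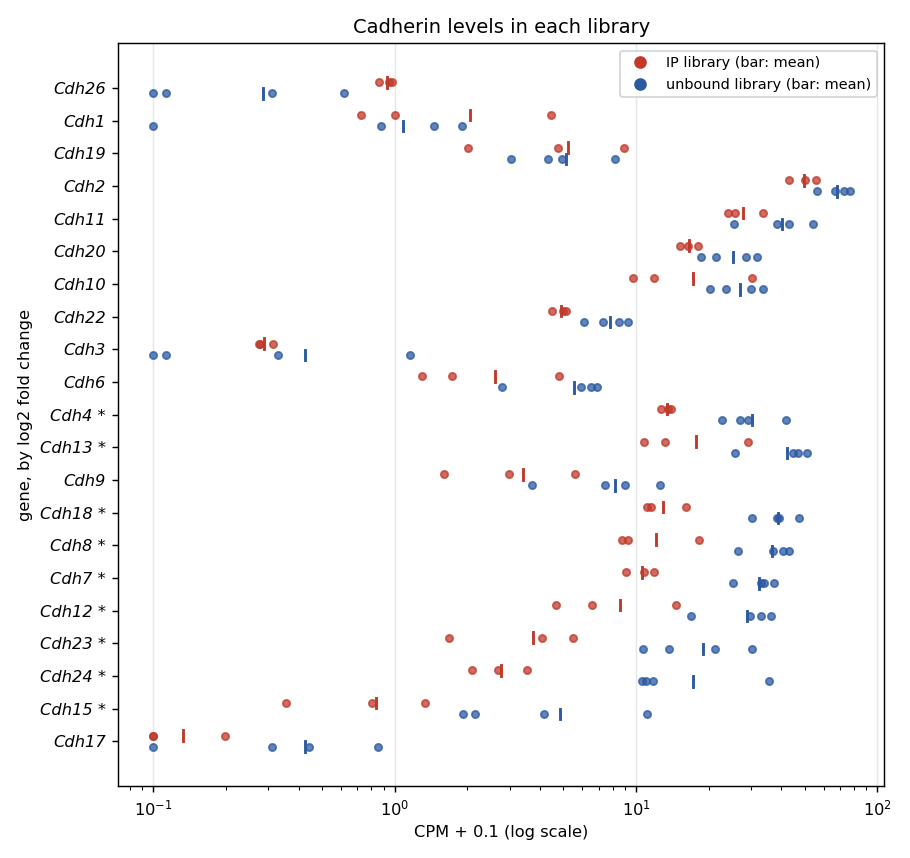
CPM plus 0.1 on a log axis in each library for the 21 tested cadherins, ordered by log2 fold change, with red points for the 3 IP and blue points for the 4 unbound libraries and a bar at each group mean. Asterisks mark the 9 genes called, all lower in IP, and Cdh26 at the top is the only cadherin whose 3 IP points lie right of all 4 unbound points.

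Non-clustered protocadherins held the largest share of the family's counts and moved in both directions. Pcdh18, a delta-2 protocadherin, lies on chromosome 3 from 49743296 to 49757325 (GRCm38, minus strand, protein coding). It measured 44.9, 54.6 and 37.8 CPM in IP and 15.0, 10.9, 9.93 and 14.6 CPM in unbound. All IP libraries were far above all unbound ones, and Pcdh18 rose by 1.86 ± 0.25 on the log2 scale, 3.63-fold (adjusted p = 0.000234). Pcdh1, a delta-1 protocadherin, measured 87.7, 114 and 113 CPM in IP and 76.5, 33.5, 69.5 and 62.2 CPM in unbound. The groups did not overlap, and the rise of 0.80 ± 0.28 passed narrowly (adjusted p = 0.0456). The call of Pcdh1 was lost without IP 1, IP 2, IP 4, unbound 3 or unbound 4, with adjusted p between 0.0595 and 0.135, and within index ACAGTG (0.88, adjusted p = 0.212). Pcdh12, also called vascular endothelial cadherin 2 after its expression in vessels, had 172, 178 and 49 counts in IP and 59, 18, 0 and 1 in unbound. All IP libraries were above all unbound ones in CPM, but the log2 fold change of 2.96 ± 1.21 did not pass (adjusted p = 0.0746). It passed without unbound 1 (4.23, adjusted p = 0.0229), with DESeq2 (adjusted p = 0.0236) and with voom (adjusted p = 0.0153).

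The other delta-2 genes did not move like Pcdh18. Pcdh17 measured 33.9, 38.6 and 52.3 CPM in IP and 125, 63.5, 99.0 and 108 CPM in unbound, with a log2 fold change of -1.25 (adjusted p = 0.00538) with the groups apart. Within index ACAGTG its value was -1.38 (adjusted p = 0.0592). Pcdh10, which links to the actin-regulating WAVE complex, measured 45.9, 61.2 and 88.4 CPM in IP and 131, 82.3, 129 and 140 CPM in unbound. IP 4 was above unbound 2, and the log2 fold change of -0.89 ± 0.29 (adjusted p = 0.0302) lost its call without any of IP 1, IP 2, unbound 1, unbound 3 or unbound 4 (adjusted p between 0.0573 and 0.139), within either index (adjusted p = 0.0999 and 0.0584) and with library-size scaling alone (adjusted p = 0.0534). Pcdh8, whose product is found at synapses and is induced by activity, measured 2.16, 2.06 and 3.73 CPM in IP and 9.86, 6.39, 6.70 and 6.12 CPM in unbound. The groups were apart at -1.46 ± 0.39 (adjusted p = 0.0127), and without IP 1 or IP 2 the adjusted p was 0.0633 and 0.0679. Within index GTGAAA Pcdh8 was at -0.76 (adjusted p = 0.162). Pcdh19, an X-linked gene known from an epilepsy of early childhood, had 52.4 ± 3.89 CPM in IP and 56.2 ± 5.34 in unbound (-0.10 ± 0.20, adjusted p = 0.721), the smallest standard error of any member.

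Counts of Pcdh18 relative to Pcdh17, a pair chosen after their values were seen, do not depend on the scaling of a library. The ratio stood at 1.32, 1.41 and 0.723 for IP 1, 2 and 4, against 0.119, 0.171, 0.1002 and 0.135 in the 4 unbound libraries. All 3 IP ratios were above all 4 unbound ones, with IP 4 the lowest of IP. The choice of pair fixed that separation, since Pcdh18 lay above and Pcdh17 below all unbound libraries in every IP library.

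The 250 bases before the RefSeq start of these 2 genes (GRCm38.p6) are shown because they are closely related and moved in opposite directions. The windows are chr3:49757317-49757566 on the minus strand for Pcdh18 and chr14:84443313-84443562 on the plus strand for Pcdh17. Capitals mark matches on either strand to a GC box (GGGCGG) or a CCAAT box (CCAAT), which do not overlap here, and neither window holds a TATA box (TATAAA) or an ETS core (CCGGAA).
Pcdh18: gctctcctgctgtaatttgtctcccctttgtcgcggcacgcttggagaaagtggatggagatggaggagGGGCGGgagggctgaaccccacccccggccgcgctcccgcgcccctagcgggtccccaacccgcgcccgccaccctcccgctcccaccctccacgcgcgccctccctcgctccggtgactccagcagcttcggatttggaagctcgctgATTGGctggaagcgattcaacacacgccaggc
Pcdh17: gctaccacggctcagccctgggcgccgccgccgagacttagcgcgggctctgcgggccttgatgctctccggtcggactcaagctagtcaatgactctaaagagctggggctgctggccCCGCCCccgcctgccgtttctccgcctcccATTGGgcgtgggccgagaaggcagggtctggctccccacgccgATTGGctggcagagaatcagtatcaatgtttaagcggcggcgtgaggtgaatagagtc
Both windows were rich in CpG, with 23 and 21 CpG dinucleotides against a median of 6 over 32851 promoter windows of this length. Their longest shared run was gattggctgg, which holds a CCAAT box on the other strand, starts 33 bases before the start site of Pcdh18 and 59 before that of Pcdh17 and occurs on either strand in 0.466% of all windows. Of 22 members whose window was read, 3 held that run (Cdh18, Pcdh17 and Pcdh18). Pcdh17 and Pcdh18 hold it by definition, since the run was picked as shared by them, and Cdh18 was the only further holder. The count of 3 can therefore not be compared with the share of all windows. A CCAAT box was in 14 of the 22 (33.9% of all windows hold one) and a GC box in 9 (32.7%). A TATA box was in 2 (12.4%) and an ETS core in 0 (12.03%). These matches are descriptions of the letters and not of factor binding.

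The remaining delta-1 genes were Pcdh9, Pcdh11x and Pcdh7, of which the former 2 fell. Pcdh9 was the most abundant protocadherin row, with 39.3, 52.7 and 102 CPM in IP and 118, 91.6, 210 and 224 CPM in unbound. IP 4 was above unbound 2, and the log2 fold change of -1.32 ± 0.41 (adjusted p = 0.0258) lost its call without IP 1, IP 2, unbound 3 or unbound 4 (adjusted p = 0.107, 0.109, 0.0643 and 0.0667). Pcdh11x, on chromosome X, measured 9.94, 11.7 and 17.1 CPM in IP and 64.3, 41.7, 60.01 and 53.8 CPM in unbound, with a log2 fold change of -2.09 (adjusted p = 0.000221) with a wide gap between the groups. Pcdh7 had 52.3 ± 18.7 CPM in IP and 97.6 ± 33.1 in unbound (-0.90 ± 0.34, adjusted p = 0.0555). It passed in several alternatives, among them without IP 4 and without unbound 2 (adjusted p = 0.0284 and 0.00859).

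Pcdh15 and Pcdh20 lie outside the delta groups. Pcdh15, the partner of Cdh23 in the tip link, lies on chromosome 10 from 73099342 to 74649737 (GRCm38, plus strand, protein coding). It measured 5.54, 5.19 and 4.66 CPM in IP and 39.5, 25.3, 34.8 and 28.9 CPM in unbound. The IP libraries were nearly equal, and Pcdh15 fell by 2.65 (adjusted p = 3.15e-05), the smallest p of any member. Pcdh20 measured 2.04, 3.52 and 6.68 CPM in IP and 10.3, 7.82, 10.6 and 13.0 CPM in unbound. Its log2 fold change of -1.36 ± 0.42 (adjusted p = 0.0265) lost its call without IP 1, IP 2, unbound 3 or unbound 4 (adjusted p = 0.1001, 0.104, 0.0537 and 0.0677), and within either index (adjusted p = 0.0637 and 0.0688). The groups did not overlap.

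The count of non-clustered protocadherins that fell was 3 without IP 1 or IP 2 and 4 without unbound 3 or unbound 4, rather than 7. The count that rose was 1 rather than 2 without IP 1, IP 2, IP 4, unbound 3 or unbound 4. Within index ACAGTG 4 fell and 1 rose, and within GTGAAA 5 fell and 3 rose, the third being Pcdh12.

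Per kilobase of exon not shared with another gene in GENCODE M21, Pcdh9 and Pcdh7 were the highest non-clustered protocadherins in unbound. They stood at 23.7 ± 9.75 and 11.7 ± 3.96 CPM per kb (SD, n = 4), a difference within their spread between libraries. In each unbound library, however, Pcdh9 had more CPM than Pcdh7 over fewer unshared bases (6783 and 8369). Pcdh10 (7.67 ± 1.66), Pcdh17 (7.63 ± 2.01) and Pcdh1 (6.87 ± 2.14) followed, again within their spread, then Pcdh19 (5.40 ± 0.514), Pcdh11x (3.94 ± 0.705) and Pcdh18 (2.35 ± 0.478). In IP the order was headed by Pcdh1 at 11.9 ± 1.70, Pcdh9 at 9.53 ± 4.88 and Pcdh18 at 8.53 ± 1.58 CPM per kb (SD, n = 3), where Pcdh9 lay within its spread of both neighbours, while Pcdh1 and Pcdh18 differed by slightly more than the sum of their SDs. The highest cadherins in unbound were Cdh18 at 8.49 ± 1.52 and Cdh2 at 8.43 ± 1.11 CPM per kb, and in IP Cdh2 stood alone at 6.14 ± 0.81, ahead of Cdh20 at 4.10 ± 0.343.

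**Figure D3:**
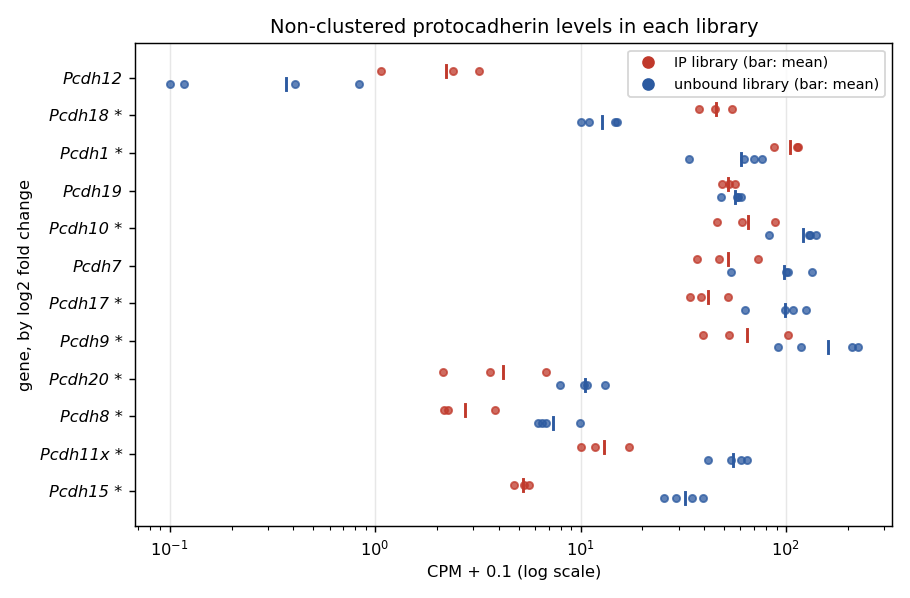
CPM plus 0.1 on a log axis in each library for the 12 non-clustered protocadherins, ordered by log2 fold change, with red points for IP, blue points for unbound libraries, bars at group means and asterisks at genes called. Pcdh18 and Pcdh1 near the top lie to the right in IP, whereas Pcdh11x and Pcdh15 at the bottom lie to the left with a gap between the groups.

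The clustered protocadherins lie in a row on chromosome 18, on the plus strand, with Pcdha from 36930184 to 37187661, Pcdhb from 37264938 to 37524479 and Pcdhg from 37661793 to 37841873 (GRCm38, protein coding where matched, but for the polymorphic pseudogene Pcdhgb8). In GENCODE M21 between 48.6% and 93% of the exon bases of each matched Pcdha gene, and between 31.5% and 100% of those of each Pcdhg gene, also belong to another gene, mainly as constant exons. Most Pcdhb genes are single exons of their own, and 19 of 21 shared no base. Reads in exons that the counting annotation shares between genes may be in no gene row. Which annotation was used for counting is not given here, and it was not GENCODE M21 in every gene, since Pcdhga10 has 0 unshared bases there and held 1718 counts. How far the counts describe the variable exons was not tested. Reads that matched several genes were 1.55% ± 0.107 of all reads in IP (SD, n = 3) and 9.95% ± 1.89 in unbound (SD, n = 4), and their part in the clustered results was not tested. The rows Pcdha4, Pcdha6, Pcdha6-g and Pcdha7 held 0 counts in every library, which allows up to 0.0376 to 0.059 CPM of reads unique to them, and Pcdha7-g and Pcdhb1 held 15 and 19 counts in all. These 6 were not tested.

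All 11 Pcdha rows tested had a negative log2 fold change and 2 of them fell. Pcdhac1, a C-type isoform, measured 0.547, 0.627 and 0.590 CPM in IP and 8.28, 1.63, 2.32 and 3.07 CPM in unbound. The groups were apart at -2.70 ± 0.66 (adjusted p = 0.00874), with unbound 1 far above the rest and a value of -1.99 without it. Pcdha10 had 2, 1 and 3 counts in IP and 71, 16, 63 and 58 in unbound, with a log2 fold change of -4.57 ± 1.06 (adjusted p = 0.00622). Within index ACAGTG the adjusted p of Pcdhac1 and Pcdha10 was 0.0686 and 0.0788. Pcdhac2, the other C-type isoform and the most abundant Pcdha row, had 10.8, 10.1 and 11.1 CPM in IP and 18.4, 8.30, 22.9 and 23.1 CPM in unbound. Unbound 2 was below all IP libraries, and the value of -0.78 ± 0.35 did not pass (adjusted p = 0.104). Pcdhac2 took 72% ± 12.8 of all Pcdha counts in IP and 52.8% ± 10.5 in unbound. The remaining rows were low, with at most 2.26 CPM in unbound on average, and IP 2 had 12 or fewer counts in all but 1 of them.

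Pcdhb rows fell in 5 of 20. Pcdhb19, chosen after its values were seen, had the smallest p of the array, with 1.11, 1.13 and 1.14 CPM in IP and 7.13, 3.35, 3.72 and 4.64 CPM in unbound (-2.06 ± 0.46, adjusted p = 0.00512), though within index ACAGTG its adjusted p was 0.0638. Pcdhb9, with the lowest log2 fold change of the array, measured 0.734, 0.174 and 1.85 CPM in IP and 6.25, 4.88, 2.64 and 4.04 CPM in unbound (-2.28 ± 0.72, adjusted p = 0.028). Pcdhb17, the most abundant, measured 5.06, 5.14 and 4.17 CPM in IP and 17.4, 4.24, 10.4 and 12.4 CPM in unbound (-1.22 ± 0.44, adjusted p = 0.0469). Unbound 2 was within the IP range of Pcdhb17, and the call was lost without any of IP 1, IP 2, IP 4, unbound 1, unbound 3 or unbound 4 (adjusted p between 0.0756 and 0.123). It was also lost with library-size scaling alone, voom and the index covariate (adjusted p = 0.0697, 0.0935 and 0.0551). The remaining calls were Pcdhb3 (-1.61 ± 0.48, adjusted p = 0.0204) and Pcdhb2 (-2.22 ± 0.79, adjusted p = 0.0456), named after their values were seen. The groups overlapped for Pcdhb2, with unbound 2 at 0.447 CPM and IP at 0.784 to 0.987 CPM. Pcdhb2 lost its call without the same 6 libraries (adjusted p between 0.0658 and 0.135), Pcdhb3 without IP 1, IP 2 or unbound 4 (adjusted p between 0.0507 and 0.0913), and Pcdhb9 without IP 1, IP 2, unbound 1 or unbound 4 (adjusted p between 0.0503 and 0.0967). With voom and with the index covariate Pcdhb2 was not called either (adjusted p = 0.211 and 0.0555). Within index ACAGTG Pcdhb17, Pcdhb2 and Pcdhb3 were not called (adjusted p = 0.301, 0.241 and 0.0964), and within GTGAAA Pcdhb3 and Pcdhb9 were not (adjusted p = 0.108 and 0.248). Pcdhb13 had the highest value, 0.23 ± 0.60 (adjusted p = 0.785), with 1.20, 5.18 and 3.07 CPM in IP and 1.18, 2.06, 3.30 and 4.17 in unbound.

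Pcdhg rows stayed nearest to the unbound level, and its 3 C-type isoforms went separate ways. Pcdhgc3, the most abundant clustered isoform, measured 39.5, 33.1 and 59.97 CPM in IP and 28.5, 14.5, 20.1 and 24.3 CPM in unbound. All IP libraries were above all unbound ones and it rose by 1.02 ± 0.29, 2.02-fold (adjusted p = 0.0187). The call of Pcdhgc3 was lost without IP 4 (0.74, adjusted p = 0.0864), without unbound 3 (0.97, adjusted p = 0.051) within index ACAGTG (0.76, adjusted p = 0.23) and without IP 4 and unbound 2 together (0.59, adjusted p = 0.0644). Pcdhgc4, the next variable exon, measured 3.07, 3.59 and 6.23 CPM in IP and 23.9, 14.3, 17.5 and 15.97 CPM in unbound, with a log2 fold change of -2.06 (adjusted p = 0.00109) with the groups well apart. Pcdhgc5 had 8.36 ± 5.82 CPM in IP and 8.35 ± 1.52 in unbound (0.00 ± 0.43, adjusted p = 0.999), with 15.0 CPM in IP 4 alone above all unbound libraries.

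Counts of Pcdhgc3 relative to Pcdhgc4, a pair chosen after their values were seen, stood at 12.9, 9.21 and 9.63 for IP 1, 2 and 4. The 4 unbound libraries gave 1.19, 1.02, 1.15 and 1.52. The ratio does not depend on how libraries are scaled, and it had little spread within unbound. The lack of overlap between the groups was fixed by the choice of pair and adds no further evidence. Pcdhgc3 lay above and Pcdhgc4 below all unbound libraries in every IP library. Pcdhgc3 took 39.1% ± 3.47 of all Pcdhg counts in IP and 18.7% ± 2.36 in unbound, and Pcdhgc4 took 3.75% ± 0.476 and 15.8% ± 3.62. Per kilobase of exon not shared with another gene in GENCODE M21, which may differ from the annotation counted on, Pcdhgc3 stood at 24.3 ± 7.71 CPM in IP (SD, n = 3) and 11.99 ± 3.27 in unbound (SD, n = 4), and Pcdhgc4 at 1.24 ± 0.488 and 5.15 ± 1.20.

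The 19 A-type and B-type Pcdhg rows gave 0 calls with edgeR, where 1 had an unadjusted p under 0.05, and DESeq2 and voom called 1 each, Pcdhgb1 and Pcdhga3, both lower and named after their values were seen. Their log2 fold changes ran from -1.55 for Pcdhgb1 to 0.89 for Pcdhga10, with 7 above 0 and adjusted p from 0.078 to 0.864. Standard errors of 0.40 to 0.76 left room for changes that could not be called. IP 4 was the highest IP library for 18 of the 22 Pcdhg rows, and Pcdhg summed to 93.0, 84.5 and 168.5 CPM in IP 1, 2 and 4 against 74.5 to 141 in unbound. Without IP 4 and unbound 2 together, 5 Pcdhg rows fell and 0 rose, rather than 1 and 1. Over all clustered rows, the number that fell was 4 without IP 1, IP 2 or unbound 4 and 5 without unbound 1, rather than 8. Within index ACAGTG 2 fell and 0 rose, and within GTGAAA 9 fell and 3 rose.

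**Figure D4:**
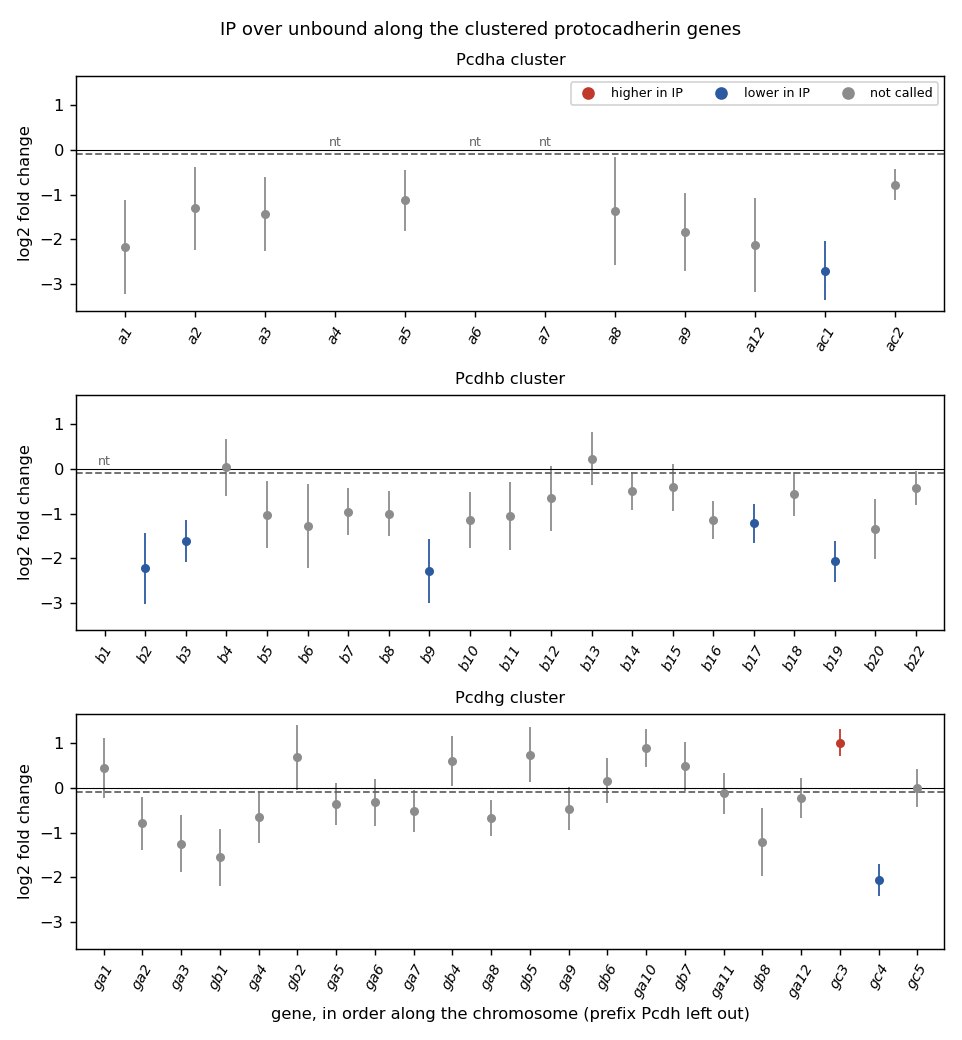
Log2 fold change of IP over unbound with its standard error for the clustered protocadherins matched in GENCODE M21, in their order along the chromosome, in 1 panel per array, with rows not tested marked nt and the dashed line at the median of all genes tested. Pcdha10, without a match, and Pcdha11, with an ambiguous one, are not drawn, the Pcdha rows all lie below 0, Pcdhgc3 is the only row called higher, at 1.02, and its neighbour Pcdhgc4 lies at -2.06.

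Genes that work with cadherins did not follow them as a group. Other members of the cadherin superfamily gave 0 higher, as cadherins did, and a median near the -1.18 of cadherins. The counts of each list, in this and the next paragraph, stand beside the 20.5% of all genes that rose and the 18.9% that fell. Of 15 catenins and junction partners, which tie cadherins to actin, 5 rose and 3 fell, with a median of 0.09. Vinculin, Vcl, had the smallest p, and rose from 20.8 ± 5.15 CPM in unbound to 111 ± 6.66 in IP (2.42 ± 0.25, adjusted p = 3.62e-05). Alpha-catenins went both ways: Ctnna1, the broadly expressed form, rose by 1.53 ± 0.21 (adjusted p = 0.000295, chosen after its value was seen), and Ctnna2, the neuronal form, fell by 1.33 (adjusted p = 0.0104). Ctnnal1 fell by 0.85 (adjusted p = 0.0328), and Pvrl1, which encodes nectin 1, by 1.11 (adjusted p = 0.0249). Of 15 other members of the cadherin superfamily tested (16 were listed) 7 fell and 0 rose, with a median of -1.14. DESeq2 and voom also called 0 of them higher, as did an unadjusted p under 0.05. Clstn3, a calsyntenin of synapses, had the smallest p among them, and fell from 111 ± 11.3 CPM to 30.2 ± 8.11 (-1.88 ± 0.25, adjusted p = 0.000207). Fat3, a giant cadherin of neurons chosen after its value was seen, fell from 400 ± 74.1 CPM to 72.3 ± 31.3 (-2.47 ± 0.34, adjusted p = 0.000259).

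Of 12 cytoplasmic partners of protocadherins 3 rose and 1 fell (median 0.02). That is 33.3% changed in either direction, against 39.4% of all genes tested. Again a pair of related genes was split. Cyfip1, a subunit of the WAVE complex, rose from 26.0 ± 4.17 to 108 ± 3.25 CPM (2.06 ± 0.21, adjusted p = 3.78e-05), and its relative Cyfip2 fell by 1.32 (adjusted p = 0.0212). Of 12 genes for chromatin factors that act on the choice of clustered promoters, 7 rose and 0 fell (0 also with DESeq2, voom and at an unadjusted p under 0.05), with a median of 0.91. Wiz, a zinc finger protein, had the smallest p (1.37 ± 0.22, adjusted p = 0.000833), and Ctcf, which binds at these promoters, had 0.54 ± 0.22 (adjusted p = 0.0774, chosen after its value was seen). Of 6 genes for cadherin cleavage, 0 were called by edgeR, DESeq2 or voom and 0 had an unadjusted p under 0.05. Aph1a, a subunit of gamma-secretase, had the smallest p among them (0.66 ± 0.33, adjusted p = 0.137).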

How the data were processed

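RNA was measured in 3 IP and 4 unbound libraries. The values deposited by the authors are whole-number read counts per gene symbol, not normalized. Per the submitters' processing notes, STAR 2.0.0e and HTSeq were the tools and mm10 the build. Which annotation, strand setting and read filters were used is not given in the sources used. The 6 rows that name no gene were left out, and among them reads in no gene made up 11.3% to 18.6% of all reads in a file and reads aligned to several places 17.6% to 39.6%.

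Members and lists were chosen with earlier results of these data known. The analysis used edgeR 4.0.16 under R 4.3.3. Of 32531 gene rows, filterByExpr left 17654, TMM set the scaling, and all of these genes entered a test of IP against unbound, the robust quasi-likelihood test (2-sided), Benjamini-Hochberg adjusted at 0.05. CPM are counts scaled to the effective library size, and the standard error of a log2 fold change was derived from the quasi-likelihood F statistic. Libraries held 52052340 to 76114634 counts in genes, so that 3 counts stood for 0.0376 to 0.059 CPM. These floors cover counting error only. No label ties a library to an animal, so p-values measure the spread between these libraries, which may be technical. Chi-square statistics per degree of freedom between libraries of a group, over rows with at least 10 counts, lay between 77.7 and 1206, so none was counted as a repeat.

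Every cadherin and every non-clustered protocadherin that passed the filter is named. Of Pcdha, Pcdhb and Pcdhg each, the most abundant, highest and lowest rows and all C-type rows are named. Of each partner list, the gene with the smallest p and any called against the majority are named. Further genes, apart from the ends of a range, are marked as chosen with their values seen. Exon lengths and coordinates came from GENCODE M21 (GRCm38, the build named mm10), where 89 of 93 members matched 1 gene by symbol. Upstream sequences came from RefSeq's GRCm38.p6.

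The comparison was repeated with DESeq2 1.42.0, with limma 3.58.1 voom, with RLE or plain library-size scaling, without the low-count filter or with one of 5 CPM in 3 libraries, with a block for the replicate number or a covariate for the index, inside either index alone, without each library in turn, and without IP 4 and unbound 2 together. In simulated data for IP and unbound (17284 genes, of which 200 were altered), calls covered 57.3% of 4-fold and 1% of 2-fold changes, along with 5 unaltered genes. The 39.4% called in the data is a far larger share than was altered there. The adjustment is stricter when fewer genes change, so these shares do not give the sensitivity in the data.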

Additional observations from a re-analysis of the deposited data

Results flagged for a closer look

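In 3 of the 86 tested members (3.49%) a single unbound library stood apart from the other unbound libraries, by Dixon's test at the 95% level (gaps of 0.846 to 0.955 of the group's range). Chance flags about 1 in 20 groups of 4. Cdh24 measured 35.5 CPM in unbound 1 against 10.5 to 11.7 in the others. Pcdh8 measured 9.86 CPM in unbound 1 against 6.12 to 6.70 in the others. Pcdha2 measured 1.82 CPM in unbound 4 against 1.08 to 1.12 in the others. Cdh24 was called lower with and without unbound 1, and Pcdh8 was too.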

How the results depend on the processing

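Calls were few in some branches, so that small changes moved them. Cadherins higher in IP were 1 with voom and 2 within index GTGAAA, against 0. Clustered protocadherins higher were 2 with the index covariate, 3 within GTGAAA, 0 within ACAGTG and 0 without IP 4 and unbound 2 together, against 1. Clustered protocadherins lower were 3 with the filter of 5 CPM in 3 libraries, which left fewer rows to test, 13 with DESeq2, 2 within ACAGTG and 18 without IP 4 and unbound 2, against 8. Non-clustered protocadherins within ACAGTG were 1 higher and 4 lower, against 2 and 7, and partner genes lower were 5, against 11. The cause of these shifts was not tested. Leaving out each library gave 0 to 0 cadherins higher and 7 to 11 lower, 0 to 1 clustered higher and 4 to 11 lower, 1 to 3 non-clustered higher and 3 to 8 lower, and 10 to 16 partners higher and 3 to 11 lower.

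Over genes, deviations from the group means of same-numbered libraries correlated at -0.03, 0.04 and 0.16 for numbers 1, 2 and 4. IP and unbound libraries of different numbers correlated between -0.19 and 0.20. No pairing by replicate number was seen, which cannot exclude that same-numbered libraries share an animal. With the replicate block 25 members were called, 23 of them among the 27, with 3 higher and 22 lower. The 4 calls lost were Pcdh1, Pcdh10, Pcdhb2 and Pcdhb17 (adjusted p = 0.0548, 0.0561, 0.165 and 0.121). Medians kept their sign in every alternative, between -1.70 and -0.87 for cadherins, -1.26 and -0.51 for clustered and -1.51 and -0.72 for non-clustered protocadherins.

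Among named members, none called in the main comparison changed sign, and 6 not called did. Cdh1 (0.99) was at -0.77 without IP 4 and unbound 2, and between -0.35 and 1.45 leaving out 1 library. Cdh19 (0.02) was at -0.0061 with the stricter filter, -0.27 with voom, -0.12 with the replicate block, -0.027 with the index covariate, -0.75 within ACAGTG and -0.80 without IP 4 and unbound 2, and between -0.61 and 0.43 leaving out 1 library. Cdh3 (-0.77) was at 1.42 with voom, 2.08 with the replicate block, 2.05 with the index covariate and 4.48 within ACAGTG, and between -1.19 and 1.25 leaving out 1 library. Pcdhgc5 (0.00) was at -0.038, -0.23, -0.19, -0.027, -0.53 and -0.75 in the order given for Cdh19, and between -0.72 and 0.34 leaving out 1 library. Pcdh19 (-0.10) was at 0.10 and Pcdhb13 (0.23) at -0.27 within GTGAAA, the latter between -0.31 and 0.64 leaving out 1 library.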
